A study of Mus musculus with 12 samples.

Results

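The 10 genes described here are those by which the inhibitory interneurons of the hippocampus are usually recognised: Gad1, Gad2 and Slc32a1, which make and package GABA, and Pvalb, Sst, Vip, Npy, Cck, Calb2 and Htr3a, which mark subtypes. They were chosen by name, with earlier results of these data known, and all 10 were read on the array, among 41345 transcript clusters in all. The data are signals from acute hippocampal slices, 350 µm thick, of adult mice aged 8 to 11 weeks, on 12 Affymetrix Mouse Gene ST arrays that form 4 groups of 3: Ptpn11D61Y S, Ptpn11D61Y B, control S and control B. S slices received a pulse of 10 min of 4AP (2.5 mM), a blocker of potassium channels, with bicuculline (50 µM), an antagonist of GABAA receptors, both in DMSO. B slices, in the basal state, received DMSO alone, and RNA of both was taken 3 h later. Slices of one animal were pooled in a chamber, so that each animal gave a B array and an S array, which share its number. Ptpn11D61Y mice, a model of Noonan syndrome, are heterozygous for a floxed Ptpn11 allele that encodes the D61Y form of the phosphatase SHP2 and for Emx1-IREScre. For the control mice the labels give the floxed allele without Cre, while the methods give wild-type Ptpn11 with heterozygous Emx1-IREScre, and these mice are called control here.

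Interneurons are a minority of hippocampal neurons, release GABA onto principal cells and onto each other, and are told apart by the calcium-binding proteins, peptides and receptors they contain. They arise in the ganglionic eminences of the ventral forebrain and migrate into the hippocampus, whereas Emx1-IREScre recombines in the lineage of excitatory neurons and astrocytes. The mutant allele is therefore switched on mainly in the cells around the interneurons. Several of the 10 genes are not restricted to interneurons: Cck is also made by pyramidal cells, Calb2 in the mouse by mossy cells and immature granule cells of the dentate gyrus, and Npy can be induced in granule cells by seizures. In bulk tissue, fewer interneurons and less transcript per interneuron cannot be told apart.

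Sst, Vip and Cck are known from other systems as genes whose promoters respond to cAMP and calcium through CREB, which binds the cAMP response element TGACGTCA and its shorter form TGACG. Since the S slices underwent strong synaptic activity, these letters were searched on both strands in RefSeq promoter windows (GRCm38.p6), each from 250 bases before to 50 bases after a transcription start. There were 9 windows for 8 of the 10 genes, and Calb2 and Htr3a are named only. A gene was counted when any of its windows held the letters, whereas the shares over all are shares of windows. The 8-base element lay in 1 of the 8, Sst, and in 1.79% of all 32851 windows. The 5-base form lay in 4 of the 8 (Gad2, Sst, Vip and Cck) and in 20.8% of all windows, and the 8-base element contains it on each strand. The stretches of 30 bases that hold these matches are printed on the strand of the gene with the matching letters in capitals, to be set against the responses given further on. A match describes the letters alone and shows no binding. Sst, Vip and Cck were known beforehand as genes of this kind, so matches in them are not an independent finding.
Sst, chr16:23890874-23890903, minus strand: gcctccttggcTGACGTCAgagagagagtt
Gad2, chr2:22622282-22622311, plus strand: ccatttcccttcCGTCActctctcatctcc
Vip, chr10:5639127-5639156, plus strand: ggatcactactgTGACGtctttcggggagc
Cck, chr9:121495724-121495753, minus strand: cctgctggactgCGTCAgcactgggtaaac
Counted from the transcription start, the capitals lie at -48 to -41 in Sst, -33 to -29 in Gad2, -79 to -75 in Vip and -47 to -43 in Cck.

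Signals are given as log2 of the deposited intensity, and a difference of 1 is a change of 2-fold. They compare samples within one gene and say nothing of one gene against another. Ptpn11 itself differed by -0.09 ± 0.20 between Ptpn11D61Y B and control B and by -0.05 ± 0.20 between the S groups (log2 difference ± SE from limma, n = 3 arrays per group, adjusted p = 1 for each), and the array does not read the D61Y codon. The 4 arrays of replicate 1 stood apart from the rest: over all clusters they correlated with the other 8 at r = 0.871 to 0.916, against 0.942 to 0.965 among those 8. One further array, Ptpn11D61Y B replicate 3, carried markers of the choroid plexus, the epithelium that makes cerebrospinal fluid. On it Ttr read 13.01 and the 6 measured choroid markers summed to 12195 intensity units, against 265 to 548 on the other 11 arrays. In the tests a cluster passed the filter when its unadjusted p from limma was under 0.05 and its fold, up or down, at least 1.5. Adjusted p values are over all 41345 clusters. No cluster reached an adjusted p of 0.05 in any of the 7 comparisons, while 482 to 1482 (1.17% to 3.58%) had an unadjusted p under 0.05. These shares are smaller than a threshold of 0.05 would give on average without any true difference. The filter therefore marks candidates only, and passing it does not set a gene apart from chance. The smallest exact two-sided permutation p that 3 arrays against 3 allow is 0.1.

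The genes of GABA synthesis and loading had nearly the same mean level in the 4 groups. Gad1 encodes GAD67, which makes most of the GABA of the brain. Its signals in replicates 1, 2 and 3 were 6.79, 7.89 and 7.49 in Ptpn11D61Y S, 6.99, 7.18 and 7.24 in Ptpn11D61Y B, 7.01, 7.90 and 7.61 in control S, and 6.24, 7.45 and 7.64 in control B. Replicate 1 was the lowest array of each group and all 4 groups overlapped. Gad2 encodes GAD65, the form bound to synaptic vesicles. It read 7.89, 8.54 and 8.39 in Ptpn11D61Y S, 8.39, 8.11 and 7.63 in Ptpn11D61Y B, 7.75, 8.65 and 8.64 in control S, and 7.42, 8.36 and 8.50 in control B. Here replicate 1 was lowest in 3 groups, and in Ptpn11D61Y B it was the highest. Slc32a1 encodes VGAT, the transporter that fills vesicles with GABA. It read 7.02, 8.20 and 7.97 in Ptpn11D61Y S, 7.59, 7.60 and 7.49 in Ptpn11D61Y B, 7.10, 8.20 and 8.01 in control S, and 6.84, 7.66 and 8.19 in control B. The 3 Ptpn11D61Y B arrays lay close together and inside the range of control B.

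In the basal state the difference Ptpn11D61Y minus control was 0.03 ± 0.38 for Gad1, -0.05 ± 0.35 for Gad2 and 0.00 ± 0.40 for Slc32a1 (log2, SE, n = 3 per group, adjusted p = 1 from limma for each). After stimulation it was -0.12 ± 0.38, -0.07 ± 0.35 and -0.04 ± 0.40, in the same order of genes. The 95% intervals of the basal differences ran from -0.81 to 0.87 for Gad1, from -0.82 to 0.72 for Gad2 and from -0.87 to 0.87 for Slc32a1, so changes of up to about those sizes could not be detected with 3 arrays. Stimulated minus basal was 0.25 ± 0.38 in Ptpn11D61Y and 0.40 ± 0.38 in control slices for Gad1, 0.23 ± 0.35 and 0.25 ± 0.35 for Gad2, and 0.17 ± 0.40 and 0.21 ± 0.40 for Slc32a1. None of the 3 genes passed the filter in any comparison. A second transcript cluster that carries the symbol Slc32a1 was dim, at 8.82 to 33.1 intensity units, and did not pass it either.

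**Figure D1:**
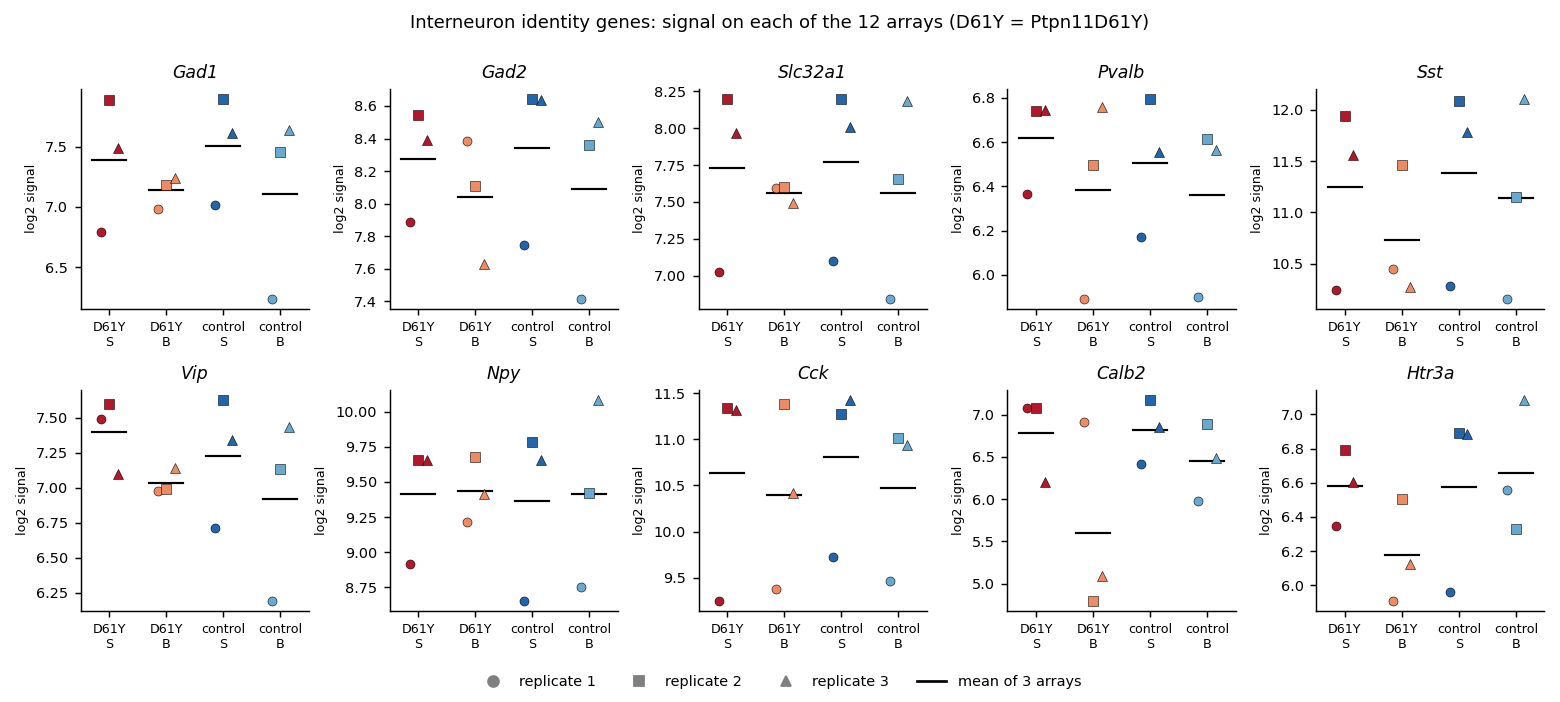
Log2 signal of each of the 10 genes (1 panel each, with its own scale) on the 12 arrays, by group, with replicate numbers as symbols and the mean of 3 arrays as a bar. Replicate 1 (circles) is lowest in most groups, and the 4 groups overlap for every gene; Calb2 is lowest on 2 of the 3 Ptpn11D61Y B arrays.

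The subtype genes expressed by the cells that arise in the medial ganglionic eminence are Pvalb and Sst. Pvalb encodes parvalbumin, the calcium buffer of fast-spiking basket and axo-axonic cells. It read 6.37, 6.74 and 6.75 in Ptpn11D61Y S, 5.89, 6.50 and 6.76 in Ptpn11D61Y B, 6.17, 6.80 and 6.55 in control S, and 5.90, 6.61 and 6.57 in control B. Its spread was the smallest of the 10 genes in the fit, with an SE of 0.28, and its differences were 0.02 between the genotypes in B, 0.11 in S, 0.24 for stimulation in Ptpn11D61Y and 0.15 for stimulation in control slices. Sst encodes the peptide somatostatin of dendrite-targeting cells such as the O-LM cells. It read 10.24, 11.94 and 11.56 in Ptpn11D61Y S, 10.45, 11.46 and 10.27 in Ptpn11D61Y B, 10.28, 12.08 and 11.78 in control S, and 10.16, 11.15 and 12.11 in control B. The Ptpn11D61Y B mean was 10.73 ± 0.64, against 11.14 ± 0.98 in control B (SD, n = 3). Replicates 1 and 3 of Ptpn11D61Y B were both low, and control B replicate 3 was the highest of the 12 arrays. Subtracted by number, between different animals, Ptpn11D61Y B minus control B was 0.29, 0.32 and -1.84 in replicates 1, 2 and 3. The group difference was -0.41 ± 0.66, and after stimulation -0.13 ± 0.66 (adjusted p = 1 from limma for each). Stimulated minus basal was 0.52 ± 0.66 in Ptpn11D61Y and 0.24 ± 0.66 in control slices for Sst, below its SE in each. Sst is the gene whose promoter window holds the complete TGACGTCA. In the same order of genotypes, the other genes with TGACG gave 0.23 and 0.25 (Gad2), 0.36 and 0.31 (Vip), 0.24 and 0.33 (Cck). Genes searched without it gave 0.25 and 0.40 (Gad1), 0.17 and 0.21 (Slc32a1), 0.24 and 0.15 (Pvalb), -0.03 and -0.05 (Npy). The ranges overlapped in each genotype, and a link between the letters and the responses was not tested.

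Npy encodes neuropeptide Y, made by neurogliaform and ivy cells and by many somatostatin cells. It read 8.92, 9.66 and 9.66 in Ptpn11D61Y S, 9.22, 9.68 and 9.42 in Ptpn11D61Y B, 8.66, 9.78 and 9.66 in control S, and 8.75, 9.42 and 10.08 in control B. Its 4 group means lay between 9.37 and 9.44, the closest of the 10 genes, and the differences between Ptpn11D61Y and control were 0.02 ± 0.39 in B and 0.05 ± 0.39 in S. Stimulated minus basal was -0.03 ± 0.39 in Ptpn11D61Y and -0.05 ± 0.39 in control slices, so that Npy was the only gene of the 10 below 0 in both, although arrays centred on their medians turned both above 0.

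Vip, Cck and Htr3a mark cells from the caudal ganglionic eminence, among them the interneurons that inhibit other interneurons. Vip encodes vasoactive intestinal peptide. It read 7.49, 7.60 and 7.10 in Ptpn11D61Y S, 6.98, 6.99 and 7.14 in Ptpn11D61Y B, 6.72, 7.63 and 7.34 in control S, and 6.19, 7.13 and 7.43 in control B. Stimulated minus basal was 0.36 ± 0.32 in Ptpn11D61Y and 0.31 ± 0.32 in control slices, and in each genotype animals 1 and 2 were higher and animal 3 was lower after the pulse. Cck encodes cholecystokinin, in interneurons a marker of a class of basket cells. It read 9.25, 11.34 and 11.32 in Ptpn11D61Y S, 9.37, 11.38 and 10.42 in Ptpn11D61Y B, 9.72, 11.28 and 11.42 in control S, and 9.47, 11.02 and 10.94 in control B. All 4 arrays of replicate 1 were below the other 8, with a mean difference of -1.68, and the SE of a difference, 0.73, was the highest of the 10 genes. Its differences ran from -0.17 to 0.33 in the 4 comparisons of pairs of groups.

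Htr3a encodes the ion-channel subunit of the serotonin receptor that nearly all interneurons of caudal origin share. It read 6.35, 6.79 and 6.60 in Ptpn11D61Y S, 5.91, 6.50 and 6.12 in Ptpn11D61Y B, 5.96, 6.89 and 6.88 in control S, and 6.56, 6.33 and 7.08 in control B. The groups overlapped in the basal state, where the difference between Ptpn11D61Y and control was -0.48 ± 0.30 (adjusted p = 1 from limma), and it was 0.00 ± 0.30 after stimulation. Htr3a was higher in S slices of all 3 Ptpn11D61Y animals, by 0.44, 0.29 and 0.48, and in 1 of 3 control animals, which read -0.60, 0.56 and -0.20. The difference between these responses was 0.48 ± 0.42 (adjusted p = 1 from limma). Htr3b, whose product joins Htr3a in the channel, differed by -0.28 for stimulation in Ptpn11D61Y and by -0.34 in control slices and did not pass the filter.

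Calb2 was the only gene of the 10 to pass the filter. It encodes calretinin, the calcium-binding protein of the interneuron-selective cells. It read 7.08, 7.08 and 6.20 in Ptpn11D61Y S, 6.91, 4.80 and 5.09 in Ptpn11D61Y B, 6.42, 7.17 and 6.86 in control S, and 5.98, 6.88 and 6.48 in control B. The arrays of Ptpn11D61Y B replicates 2 and 3 were the lowest of all 12, at 27.9 and 34.0 intensity units, whereas replicate 1 of the same group read 120.5, among the high values, and the range of Ptpn11D61Y B spanned that of control B. The group means were 6.79 ± 0.51 in Ptpn11D61Y S, 5.60 ± 1.15 in Ptpn11D61Y B, 6.82 ± 0.38 in control S and 6.45 ± 0.45 in control B (SD, n = 3). From the lowest up, the order was Ptpn11D61Y B, control B, Ptpn11D61Y S and control S, and no neighbours in it were further apart than the SD of the more variable one.

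In Ptpn11D61Y slices Calb2 was higher in S than in B by 1.19 ± 0.49 on the log2 scale, a fold of 2.27, with a 95% interval of the log2 difference from 0.11 to 2.26, and it failed the correction over all clusters (adjusted p = 1 from limma). The exact permutation test over the 6 arrays gave a two-sided p of 0.2. The groups overlapped, with B replicate 1 (6.91) above S replicate 3 (6.20). In control slices the difference was 0.37 ± 0.49, and the difference between the responses of the genotypes was 0.82 ± 0.70 (adjusted p = 1 from limma), so the responses were not shown to differ. Over both genotypes stimulated minus basal was 0.78 ± 0.35 (adjusted p = 0.891 from limma), past the filter. By the methods' own test, with its bi-weight averages, the difference in Ptpn11D61Y was 2.13 and did not pass, and with limma on the compared arrays only it did not pass either. The call in Ptpn11D61Y was lost when one of 4 arrays was left out: replicate 2 of B (0.79), replicate 3 of B (0.93), replicate 1 of S (1.04) or replicate 2 of S (1.04), and without replicate 1 of B the difference was 1.84. The call over both genotypes was lost without those 4 Ptpn11D61Y arrays and without replicates 1 or 3 of control B and replicates 2 or 3 of control S, at 0.58 to 0.78, and kept without each of the other 4.

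The genotype difference of Calb2 was -0.85 ± 0.49 in the basal state (adjusted p = 1 from limma) and -0.03 ± 0.49 after stimulation. Arrays of the 2 genotypes that share a number come from different animals, and no label pairs them. Subtracted by number, the basal difference was 0.93 in replicate 1, -2.08 in replicate 2 and -1.40 in replicate 3. Without Ptpn11D61Y B replicate 1 the basal difference was -1.50 and passed the filter. The summed choroid plexus markers were highest on the 2 arrays where Calb2 was lowest. On Ptpn11D61Y B replicate 2 the 6 measured markers summed to 547.7 intensity units and Ttr read 7.18, the second highest values after those of replicate 3, against sums of 265 to 485 and Ttr of 4.59 to 6.70 on the other 10 arrays. The median log2 deviation of the 6 markers from their means over all arrays ranked otherwise. It was 2.48 on replicate 3, 0.02 on replicate 2 and 0.19 on replicate 1, where Calb2 was high. The part of these markers in the result was not tested. The other cells that contain calretinin were read by a list of 7 genes of mossy cells and immature granule cells, Calb2 included: 3 of the 7 were above 0 in Ptpn11D61Y B against control B, beside 50.1% of all clusters, with a median of -0.03, and 4 of 7 in Ptpn11D61Y S against B, beside 46.5%, with a median of 0.02. Subtracted by number in the same way, the basal median of this list was 0.74, -0.24 and -0.40 in replicates 1, 2 and 3, with the same signs as Calb2. These signs were not particular to it. The genes of GABA synthesis, transport and breakdown (0.56, -0.06 and -0.30) and the receptors of interneuron peptides (0.31, -0.22 and -0.32) had them too. Other lists did not, such as the markers of excitatory neurons (-0.14, 0.19 and -0.37). Of the 6 markers of Cajal-Retzius cells, which contain calretinin too, 6 were above 0 in Ptpn11D61Y B against control B (median 0.12) and 2 in Ptpn11D61Y S against B (median -0.15), and 0 passed the filter. The part of these cells in the result was not tested. Calb2 was the only one of the 7 to pass the filter in these comparisons.

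**Figure D2:**
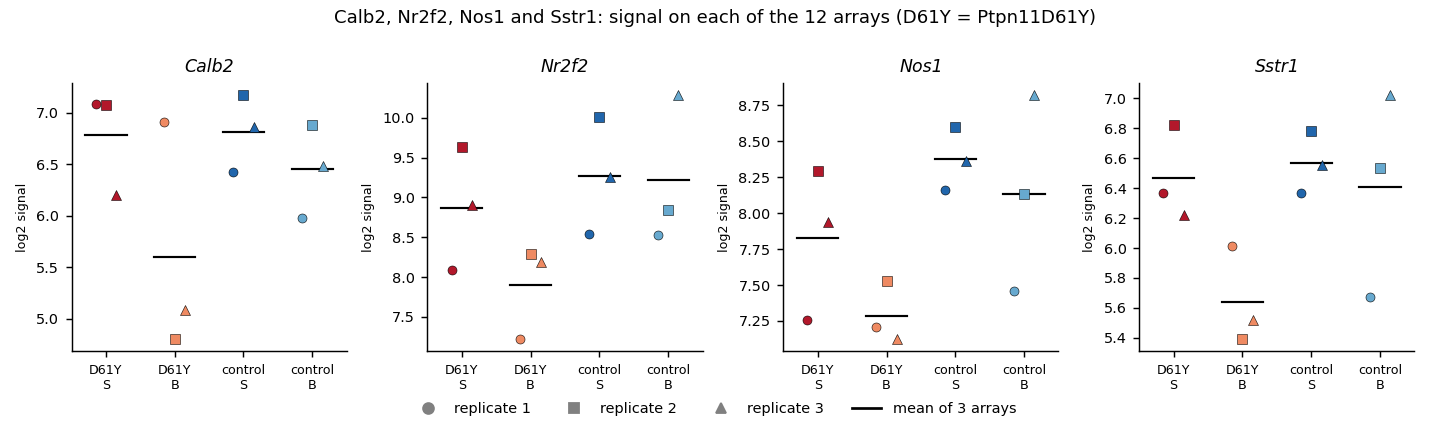
Log2 signal of Calb2 and of Nr2f2, Nos1 and Sstr1, the related genes that passed the filter in basal slices, on the 12 arrays by group; symbols are replicates and bars are means of 3 arrays. The 3 Ptpn11D61Y B arrays of Nr2f2 lie below those of control B, while Calb2, Nos1 and Sstr1 overlap between these groups.

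The counts of the 10 genes were set against the whole array. Between Ptpn11D61Y B and control B, 0 of 10 passed the filter, as did 1.30% of all clusters, and 4 of 10 were above 0 with a median of -0.03, beside 50.1% and 0.00 over all clusters. Between Ptpn11D61Y S and control S it was again 0 of 10, against 1.83% of all clusters, with 4 above 0 and a median of -0.03, beside 58.6% and 0.06. For stimulation, 1 of 10 passed in Ptpn11D61Y, where 1.14% of all clusters passed, and 0 of 10 in control slices, where 3.17% did. The genotype difference over both states held 0 of 10 past the filter (1.38% of all clusters), stimulation over both genotypes 1 of 10, which was Calb2 (1.87%), and the difference of the responses 0 of 10 (1.17%). By the unadjusted p alone the counts of the 10 were the same, and by the methods' own test with this filter they were 0 in each of the 4 comparisons of pairs. No gene of the 10 had groups without overlap in a comparison of pairs, which 4.51% of all clusters had for Ptpn11D61Y B against control B, 6.19% for Ptpn11D61Y S against control S, 4.72% for Ptpn11D61Y S against B and 10.2% for control S against B.

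**Figure D3:**
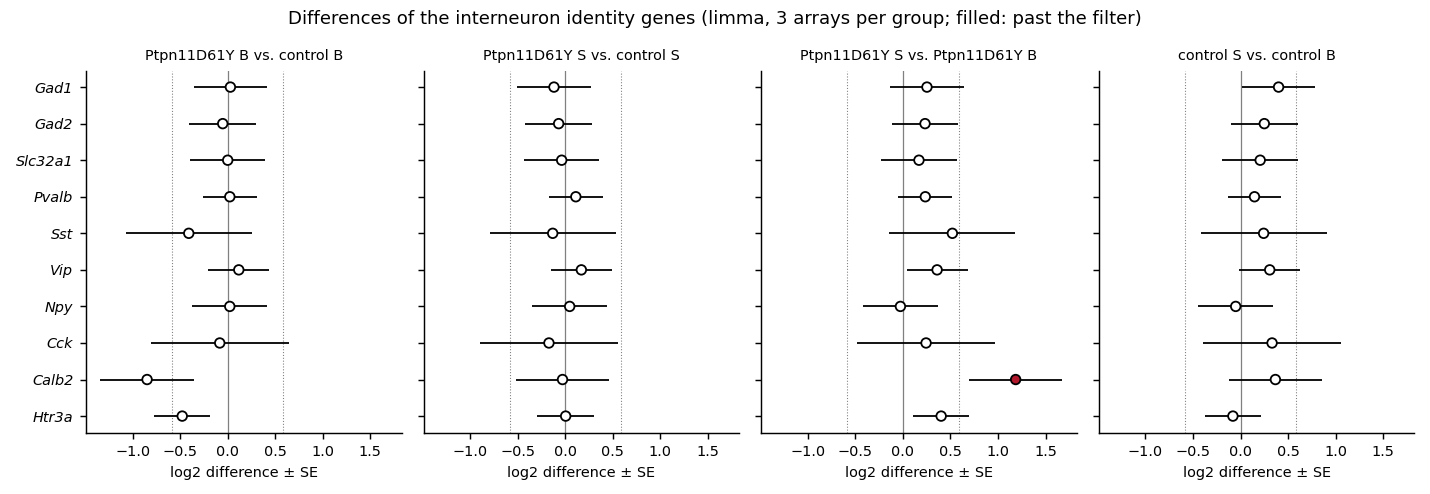
Log2 difference ± SE (limma, 3 arrays per group) of the 10 genes in the 4 comparisons of pairs of groups, with dotted lines at a fold of 1.5 either way; the filled point passed the filter. Genotype differences run from -0.17 to 0.17 apart from those of Calb2, Htr3a and Sst in B, and stimulation differences lie mostly above 0 in both genotypes.

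Most of the 10 genes had a higher mean in S than in B slices, by small amounts. The difference was above 0 for 9 of 10 in Ptpn11D61Y and for 8 of 10 in control slices, with medians of 0.25 in each, beside 46.5% and 41.3% of all clusters above 0. Over the 16700 clusters with a symbol and a mean signal of at least 5, 52.8% and 56.2% were above 0, with medians of 0.01 and 0.05. The count also depended on the scaling. Centring each array on its median moved every stimulation difference up by 0.07 in Ptpn11D61Y and by 0.20 in control slices, which put 10 of 10 above 0 in each genotype, with 56.1% of all clusters above 0 in Ptpn11D61Y and 57.9% in control slices. The same centring lowered the genotype difference in S by 0.15 and left 1 of 10 above 0 there, beside 39.7% of all clusters. Of the stimulation differences of pairs only that of Calb2 in Ptpn11D61Y passed the filter, while those of Htr3a and Vip in Ptpn11D61Y and of Gad1 in control slices were above their SE without passing.

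Since the B and S slices of an animal are matched, the differences were also taken within each of the 6 animals. Calb2 was higher in S in all 6, by 0.17, 2.28 and 1.12 in Ptpn11D61Y animals 1 to 3 and by 0.44, 0.29 and 0.37 in control animals (mean 0.78 ± 0.81, SD, n = 6). The exact two-sided sign-flip permutation test gave p = 0.03125, the smallest that 6 animals can give and not adjusted over the 10 genes tested. Of all clusters, 3.38% were higher in S in all 6. The control animals lay close together and the Ptpn11D61Y animals covered the whole range. Gad2 was higher in 5 of 6 animals, by 0.43 and 0.76 in Ptpn11D61Y animals 2 and 3 and by 0.33, 0.28 and 0.14 in control animals, and was lower by 0.50 in Ptpn11D61Y animal 1; 14.3% of all clusters were higher in at least 5. The other 7 genes besides Npy were higher in 4 of 6 and Npy in 2 of 6, with exact p values from 0.125 to 0.719 among the genes other than Calb2. On arrays centred on their medians Gad1 and Pvalb were higher in S in 6 of 6 animals as well, and 6.60% of all clusters then were. The genotype differences of the means of each animal gave exact p values of 0.4 or more for all 10 genes, where 0.1 is the smallest possible.

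**Figure D4:**
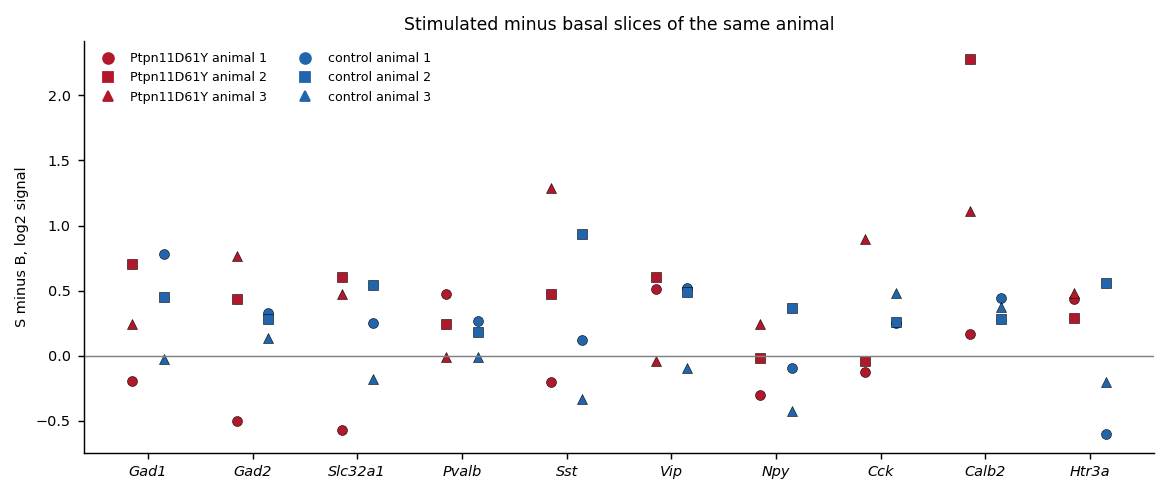
Log2 signal of S minus B slices of the same animal for the 10 genes, with Ptpn11D61Y animals in red left of control animals in blue. Only Calb2 is above 0 in all 6 animals, and its Ptpn11D61Y animals run from 0.17 to 2.28.

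The difference between replicate 1 and the other replicates was larger for most of the 10 genes than any difference between groups. The mean of the 4 arrays of replicate 1 was below that of the other 8 for 9 of 10 genes, with a median of -0.68, and was 0.28 above it for Calb2. For Gad1, Pvalb, Npy and Cck all 4 replicate 1 arrays were below all of the other 8, as were those of 15.1% of all clusters. The median over all clusters was -0.04 and over the symbol-bearing clusters with a mean of at least 7 it was -0.58 in replicate 1 against the others. Genotype differences by number subtract arrays that share no animal. In B their median over the 10 genes was 0.61 in replicate 1, -0.09 in replicate 2 and -0.68 in replicate 3. The median stimulation difference was -0.16, 0.46 and 0.48 in Ptpn11D61Y and 0.26, 0.41 and -0.06 in control animals 1, 2 and 3. What replicate 1 shares, and the part of the choroid plexus markers in replicate 3 of Ptpn11D61Y B, was not tested.

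**Figure D5:**
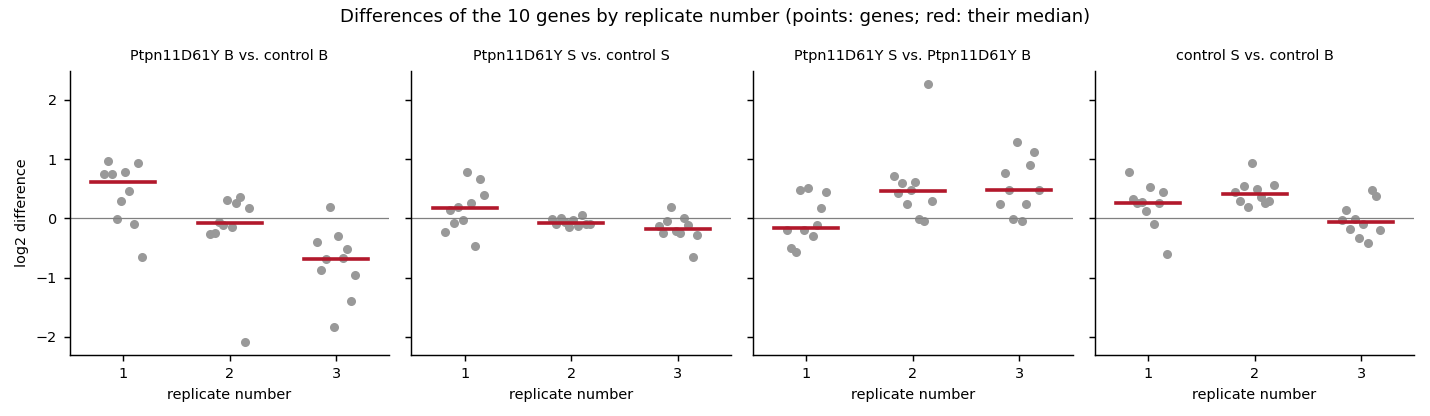
Log2 difference of each of the 10 genes (grey points) and their median (red line) by replicate number in the 4 comparisons of pairs of groups. In Ptpn11D61Y B against control B the median is 0.61, -0.09 and -0.68 in replicates 1, 2 and 3, with no common sign.

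The genes varied together across the arrays. With the mean of Gad1, Gad2 and Slc32a1, Pearson's r over 12 arrays was 0.91 for Sst, 0.87 for Npy, 0.81 for Cck, 0.77 for Vip, 0.70 for Pvalb, 0.60 for Htr3a and 0.38 for Calb2, beside a median of 0.56 over 16697 candidate clusters with a symbol and a mean of at least 5. Over the 8 arrays of replicates 2 and 3 the order was different: Sst 0.90, Calb2 0.87, Htr3a 0.87, Vip 0.84, Npy 0.60, Cck 0.59 and Pvalb 0.18, beside a median of 0.26. Leaving out replicate 1 thus moved Pvalb from above the median of the candidates to below it, and Calb2 from below to above. The 5 genes most like the mean of Gad1, Gad2 and Slc32a1 over 12 arrays were 1810013L24Rik (0.97), Tmem255a (0.97), Dnm3 (0.97), Usp29 (0.97) and Negr1 (0.97), of which Dnm3 was highest over the 8 arrays (0.99). The arrays share animals and replicate numbers, and these values describe the arrays without a test.

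Among other genes of interneurons, few passed the filter and all failed the correction (adjusted p of 0.891 or more from limma). Of 16 measured transcription factors of interneuron development, 1 passed in Ptpn11D61Y B against control B, where 1.30% of all clusters did, and it was lower. It was Nr2f2, which encodes COUP-TFII, found in cells of caudal origin and in some of medial origin: it read 7.22, 8.29 and 8.19 in Ptpn11D61Y B, against 8.53, 8.84 and 10.29 in control B, without overlap, a difference of -1.32 ± 0.55. Of 30 other subtype genes, 1 passed against the same background, Nos1, the neuronal nitric oxide synthase of ivy, neurogliaform and long-range cells, with 7.21, 7.53 and 7.12 in Ptpn11D61Y B against 7.46, 8.13 and 8.82 in control B, and a difference of -0.85 ± 0.34. Of the 13 receptors of interneuron peptides, 1 passed: Sstr1, a receptor of somatostatin, read 6.01, 5.39 and 5.52 in Ptpn11D61Y B against 5.67, 6.54 and 7.02 in control B (-0.77 ± 0.32). Markers of other cells differed in the same basal comparison: all 6 measured oligodendrocyte markers were above 0, with a median of 0.47. Of these, Mog (0.65 ± 0.26) and Mag (0.60 ± 0.23), both of myelin, passed the filter. Slc17a6, a vesicular glutamate transporter, passed too (1.12 ± 0.38, adjusted p = 1 from limma for each of these genes). It was 1 of 10 measured markers of excitatory neurons, of which 3 were above 0 and 7 below, with a median of -0.13. Beside this, 50.1% of all clusters were above 0. The Slc17a6 groups overlapped, at 6.49, 6.05 and 6.88 in Ptpn11D61Y B and 5.30, 6.17 and 4.59 in control B. The oligodendrocyte markers summed to 5148 to 8117 intensity units in Ptpn11D61Y B and 4211 to 5659 in control B, which overlapped, and the part of these markers in the lower values was not tested. Sstr1 was also the only gene of these lists to pass for stimulation in Ptpn11D61Y, where 1.14% of all clusters did, with 6.37, 6.82 and 6.22 in S slices above all 3 B arrays (0.83 ± 0.32). The calls in the basal state were all lost without control B replicate 3 (-0.78 for Nr2f2, -0.51 for Nos1 and -0.46 for Sstr1). Nr2f2 was lost also without Ptpn11D61Y B replicate 1 (-0.98), Nos1 without control B replicate 2 (-0.85), Ptpn11D61Y B replicate 1 (-0.81) or replicate 3 (-0.77), and Sstr1 without control B replicate 2 (-0.70), Ptpn11D61Y B replicate 2 (-0.64) or replicate 3 (-0.71). By the methods' own test none of the 3 basal calls passed (-0.48 for Nr2f2, -0.94 for Nos1 and -0.95 for Sstr1), and that of Sstr1 was lost as well with limma on the compared arrays only. The stimulation call of Sstr1 was lost without Ptpn11D61Y B replicate 2 (0.70) or replicate 3 (0.77) and without Ptpn11D61Y S replicate 2 (0.65).

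Over both states 1.38% of all clusters passed the filter, in a fit that counts the B and S arrays of an animal as separate samples. Of the 16 transcription factors 1 passed higher and 1 lower, and of the 30 other subtype genes 1 higher and 1 lower. The higher ones in Ptpn11D61Y were Sp8, a transcription factor of caudal interneurons (0.86 ± 0.32), and Acan, which encodes the aggrecan of perineuronal nets (0.59 ± 0.21). Both had low signals, with group means of 4.64 to 5.80 for Sp8 and 5.05 to 5.75 for Acan. Sp8 rested on replicate 1, with 6.15 and 6.83 in Ptpn11D61Y S and B against 4.45 and 4.54 in control S and B, and the difference was 0.30 in replicates 2 and 3 alone. Nos1 and Nr2f2 were lower over both states (-0.70 ± 0.24 and -0.86 ± 0.39), which include the basal arrays given above. The genotype differences of Sp8, Acan, Nos1 and Nr2f2 were not tested by animal. Calb1, which encodes calbindin, a protein of granule cells and CA1 pyramidal cells as well as of interneurons, was higher after stimulation over both genotypes (0.62 ± 0.23), in 5 of 6 animals (exact permutation p = 0.0625). Of the 30 other subtype genes it was the 1 that passed there, where 1.87% of all clusters did. Leaving out single arrays ended each of these calls. For Sp8 these were Ptpn11D61Y S replicate 1, control S replicate 3 and control B replicate 1 (0.72 to 0.75), and for Nos1 Ptpn11D61Y S replicate 1 and control B replicate 3 (-0.55 to -0.53). For Calb1 they were Ptpn11D61Y S replicates 2 and 3, Ptpn11D61Y B replicate 3, control S replicate 3 and control B replicate 1 (0.48 to 0.56). Nr2f2 was lost without replicates 1 or 3 of Ptpn11D61Y S or of Ptpn11D61Y B, replicates 2 or 3 of control S, or replicate 3 of control B (-0.93 to -0.59). Acan was lost without replicates 2 or 3 of Ptpn11D61Y S or of Ptpn11D61Y B, replicates 1 or 2 of control S, or replicates 1 or 3 of control B (0.52 to 0.57), and also on centred arrays (0.50), after a repeated quantile normalization (0.47) and with an offset of 16 (0.42). Sp8 was lost as well with array weights (0.38), and Calb1 after a repeated quantile normalization (0.54). Nr2f2 was lost also without a variance trend and with the animal as a random block (-0.86 in each). Of the 9 measured genes of GABA synthesis, transport and breakdown, the 9 proteins of inhibitory synapses, the 9 enzymes of peptide processing and the 16 activity genes that act on inhibition, 0 passed the filter in any comparison. For stimulation, 9 of the 9 inhibitory synapse proteins were above 0 in Ptpn11D61Y and 8 of 9 in control slices, with medians of 0.19 and 0.21. Beside this, 46.5% and 41.3% of all clusters were above 0 (56.1% and 57.9% on centred arrays). Of the clusters with a symbol and a mean of at least 5, 52.8% and 56.2% were. Of the 10 measured markers of excitatory neurons 8 were above 0 in each genotype, with a median of 0.30, beside the same shares.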

How the data were processed

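Hippocampal slices of 3 animals per genotype gave 12 arrays in 4 groups of 3. The authors made the deposited intensity values with Expression Console, by background correction, quantile normalization and PLIER, and the values are on a linear scale. Here they were taken to log2 with a floor of 1, under which 2.89% of all values and none of the 10 genes lay. Symbols came from the platform annotation; a gene was read by its cluster with 1 symbol and the highest mean. Differences were fitted with limma 3.58.1 in R 4.3.3 on all 12 arrays, with a variance trend, 8 residual degrees of freedom and Benjamini-Hochberg adjustment over all 41345 clusters. Counts use the filter of the study's methods, a fold of 1.5 with an unadjusted p of 0.05. Differences within animals were tested by exact sign flips, without adjustment over the 10 genes, since the list was chosen with earlier results known. The code was tested on simulated data.

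The genes, the lists of other genes and the alternatives were chosen with earlier results of these data known. Named were the 10 genes, up to 4 genes past the filter from each list of interneuron genes, the 5 most like the mean of the GABA genes, Ptpn11, and markers that moved with a result. The pairing comes from the labels, which give B and S slices of one number to one animal: their residuals correlated at 0.55, 0.39 and 0.19 in Ptpn11D61Y and at 0.05, -0.01 and 0.04 in control animals, while B arrays of the 2 genotypes, which share a number but no animal, correlated at 0.56, 0.36 and 0.19. These correlations do not bear the pairing out. The methods' test has no block, and blocks were alternatives, as were other scalings, an offset of 16, a filter on dim clusters, other variance settings, array weights, replicates 2 and 3 alone, and leaving out each array. The number of arrays limits the precision.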

Additional observations from a re-analysis of the deposited data

How the results depend on the processing

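The 10 genes in 7 comparisons gave 70 differences, of which 47 changed sign under at least 1 of 12 alternatives or on leaving out an array, and none of these 47 had passed the filter. No call reversed. In Ptpn11D61Y B against control B the count past the filter was 0, and it became 1 after a repeated quantile normalization (Htr3a), 4 with array weights (Gad2, Sst, Calb2 and Htr3a, all lower) and 1 in replicates 2 and 3 alone (Calb2, -1.74, adjusted p = 0.544 from limma). In Ptpn11D61Y S against B it was 1, became 0 with the methods' test or with limma on the compared arrays only, 3 with array weights (Gad2, Sst and Calb2) and 2 in replicates 2 and 3 alone (Gad2 and Calb2). Over both states the genotype count of 0 became 2 with array weights (Sst and Calb2) and 1 in replicates 2 and 3 alone (Calb2). Over both genotypes the stimulation count of 1 became 0 without a variance trend, and the count of 0 for the difference of the responses became 1 with array weights and 1 in replicates 2 and 3 alone (Calb2 in each). The cause of these changes was not tested. On arrays centred on their medians the stimulation difference within animals was 0.46 for Gad1 and 0.32 for Pvalb, with an unadjusted exact permutation p of 0.03125 for each.

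When each array was left out in turn, the count ranged from 0 to 1 in 5 comparisons: Ptpn11D61Y B against control B, Ptpn11D61Y S against B, genotype over both states, stimulation over both genotypes, and the difference of the responses. The gene was Calb2 each time. The median of the 10 genes ranged from -0.11 to 0.56 in control S against B and from -0.34 to 0.21 in Ptpn11D61Y S against control S. Without 1 animal the difference of Calb2 within animals was 0.48 to 0.90, with an exact permutation p of 0.0625, the smallest that 5 animals allow. The replicate block, with the animal or the replicate number, changed no call of the 10 genes: the count stayed at 1 for stimulation in Ptpn11D61Y, where Calb2 had an adjusted p of 1, and over both genotypes, where it was 0.643 with the animal as a random block, and at 0 elsewhere. It ended 1 call among the other interneuron genes, that of Nr2f2 over both states, with the animal as a random block. The alternatives with the methods' test and with the compared arrays exist for pairs of groups alone, and the animal as a fixed block for comparisons within animals.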
